A study of Mus musculus with 6 samples.

Results

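Tight junctions and desmosomes are contact structures that join epithelial cells to one another. Their genes were compared between sorted mouse breast cancer cells positive for both CD24 and CD29 (CD24+CD29+) and cells negative for both (CD24-CD29-), with 3 arrays in each group. The sort used 2 surface proteins, the glycoprotein CD24 (gene Cd24a) and CD29, an integrin chain (gene Itgb1). Both groups were labelled as breast cancer stem cells, had been grown in serum-containing medium and were sorted by those surface proteins. No strain, age, cell line, tumour or added treatment is given in the sources used here. The submitters describe the 3 samples of a group as independent and biological, but nothing says that they came from separate cultures or animals. The p-values below therefore weigh each difference only against the variation among these samples, which may be technical.

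The genes were chosen by symbol alone: the numbered claudins, Ocln, Marveld2, Marveld3, F11r, Tjp1, Tjp3, Cgn, the desmocollins and desmogleins, Pkp1 to Pkp4, Jup, Dsp, Evpl, Ppl and Perp. A probe set is the group of probes that reads one transcript region on the Affymetrix Mouse430_2 array. The rule found 72 probe sets among 34945 with exactly 1 gene symbol, and these read 42 genes of 18193. Of these genes, 27 belong to tight junctions and 15 to desmosomes. Each gene was represented by its brightest single-symbol probe set over the 6 arrays, with those ending in _x_at, which can cross-hybridise, used where the gene had no other.

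Tight junctions are belts near the apical surface that seal the space between cells. Claudins form the strands of the seal, occludin and its MARVEL-domain relatives sit in the same strands, and the zonula occludens proteins and cingulin tie the strands to actin. Desmosomes are spot-like rivets in which desmocollins and desmogleins hold neighbouring cells together, plakoglobin and plakophilins bind their tails, and desmoplakin anchors the whole to keratin filaments. In the mammary duct, tight junctions seal luminal cells around the milk space, and desmosomes join luminal and basal cells.

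Because the results turn on genes that moved together, the promoters of 2 pairs of neighbouring genes that were lower in CD24+CD29+ cells, Ocln with Marveld2 and Cldn4 with Cldn3, are shown with those of F11r and Dsp, which were higher. No other protein-coding gene lies between the members of either pair in the RefSeq table. Each sequence is from RefSeq (GRCm38.p6), runs 5' to 3' on the gene's strand and covers 250 bases before and 50 bases after an annotated start. Capitals mark CAGGTG or its reverse complement CACCTG, the E-box that Snail and Zeb repressors are known to read.
Ocln, chr13:100552449-100552748, minus strand: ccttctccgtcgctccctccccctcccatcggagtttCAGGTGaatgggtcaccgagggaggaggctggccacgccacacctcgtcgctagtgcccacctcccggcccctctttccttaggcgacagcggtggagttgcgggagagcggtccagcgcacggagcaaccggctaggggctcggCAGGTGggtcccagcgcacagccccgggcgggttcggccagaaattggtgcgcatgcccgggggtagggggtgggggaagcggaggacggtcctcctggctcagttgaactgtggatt
Marveld2, chr13:100616895-100617194, minus strand: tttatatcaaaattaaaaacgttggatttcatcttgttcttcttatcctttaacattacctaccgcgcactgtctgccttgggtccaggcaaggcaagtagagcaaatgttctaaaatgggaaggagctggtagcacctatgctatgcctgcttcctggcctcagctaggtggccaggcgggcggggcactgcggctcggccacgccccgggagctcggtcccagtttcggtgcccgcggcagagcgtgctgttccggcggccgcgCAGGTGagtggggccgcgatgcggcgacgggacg
Cldn4, chr5:134946885-134947184, minus strand: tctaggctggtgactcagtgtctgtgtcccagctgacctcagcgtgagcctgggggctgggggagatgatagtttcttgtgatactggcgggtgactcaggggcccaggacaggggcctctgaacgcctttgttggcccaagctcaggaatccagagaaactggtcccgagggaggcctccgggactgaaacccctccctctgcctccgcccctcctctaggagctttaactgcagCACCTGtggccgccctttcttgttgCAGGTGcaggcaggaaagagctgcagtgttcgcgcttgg
Cldn3, chr5:134985964-134986263, plus strand: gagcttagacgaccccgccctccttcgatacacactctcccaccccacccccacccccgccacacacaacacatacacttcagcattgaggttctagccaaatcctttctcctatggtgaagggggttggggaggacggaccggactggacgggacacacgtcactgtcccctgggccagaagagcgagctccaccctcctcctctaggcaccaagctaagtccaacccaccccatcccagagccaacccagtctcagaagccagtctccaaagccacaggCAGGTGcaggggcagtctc
F11r, chr1:171437311-171437610, plus strand: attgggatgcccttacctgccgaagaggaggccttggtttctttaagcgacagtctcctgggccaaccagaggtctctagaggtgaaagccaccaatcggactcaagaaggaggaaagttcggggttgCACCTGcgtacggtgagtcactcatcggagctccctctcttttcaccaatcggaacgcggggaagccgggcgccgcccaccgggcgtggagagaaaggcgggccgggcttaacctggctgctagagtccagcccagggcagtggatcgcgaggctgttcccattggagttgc
Dsp, chr13:38151044-38151343, plus strand: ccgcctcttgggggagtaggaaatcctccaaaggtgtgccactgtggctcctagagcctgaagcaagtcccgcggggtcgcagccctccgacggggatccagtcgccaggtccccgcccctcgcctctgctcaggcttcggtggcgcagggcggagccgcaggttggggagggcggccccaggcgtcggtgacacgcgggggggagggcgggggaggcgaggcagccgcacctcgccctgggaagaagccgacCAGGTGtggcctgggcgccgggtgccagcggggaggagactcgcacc

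The deposited values were log2 values made with RMA, a method that removes background and gives 1 value per probe set. The arrays as deposited do not share a distribution: the SD over all probe sets was 2.10 to 2.14 on CD24+CD29+ arrays and 2.01 to 2.03 on CD24-CD29- arrays. All values are levels on that scale, and all differences are CD24+CD29+ minus CD24-CD29-. They were tested with limma over all 18193 genes, and p-values were adjusted over all of them by the Benjamini-Hochberg method with a threshold of 0.05. The correlation across genes, which are not independent replicates, was 0.998 to 0.999 within a group and 0.974 to 0.978 between groups. Itgb1 averaged 10.94 in CD24+CD29+ cells and 10.06 in CD24-CD29- cells, a difference of 0.87. Cd24a was higher by 0.21 in CD24+CD29+ cells and had a bright mean of 12.79 in CD24-CD29- cells too, with 1 of 3 Cd24a probe sets and 1 of 6 Itgb1 probe sets of opposite sign. Epcam, an epithelial surface protein, was bright throughout: CD24+CD29+ cells had 14.11 ± 0.02 and CD24-CD29- cells 14.13 ± 0.02 (SD, n = 3 each). Most genes differed: 70.8% of all genes passed the threshold, 34.4% as higher and 36.5% as lower, and 73.6% had groups that did not overlap. Bacterial control RNAs added before labelling (poly-A controls) were lower on CD24+CD29+ arrays by a mean of 24 probe sets of -1.08. The labels do not say whether equal amounts of these controls were added per amount of RNA. Values scaled to the controls are therefore given as an alternative only. Scaling to them moves the median of all genes from -0.04 to 1.05, so each direction below is relative to the other genes on the deposited scale.

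On the deposited scale, tight junction genes were mostly lower and desmosome genes mostly higher in CD24+CD29+ cells, and scaling to the poly-A controls turns most of the lower calls. Of all genes, 36.5% were lower in CD24+CD29+ cells and 34.4% higher. Of the 27 tight junction genes, 18 were lower in CD24+CD29+ cells, 5 were higher and 4 did not pass, with a median difference of -0.29. Of the 15 desmosome genes, 10 were higher and 5 lower, with a median of 0.33. Relative to the median of all genes these medians were -0.25 and 0.37. Scaling to the poly-A controls adds 1.08 to every difference, so it cannot change these relative values. Under that scaling, 23 of the 27 and 14 of the 15 pass as higher. In these bulk samples, fewer cells of a type and less RNA per cell cannot be told apart. The groups did not overlap for 23 of the 27 tight junction genes and for all 15 desmosome genes, beside 73.6% of all genes. At least 2-fold differences were found for Pkp1 and Dsc3, which were higher, and for Cldn13, Cldn10, Ocln and Dsg1a, which were lower. These are 6 of 42 genes, where 4.67% of all genes differed by that much, 3.01% as higher and 1.66% as lower.

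Over the whole array, dim genes were more often lower, so the genes were split at a level of 8, a value chosen after the data were seen. Among genes with a mean level of 8 or more, 55.5% of all genes were higher and 23.3% lower in CD24+CD29+ cells. Of the 11 tight junction genes at that level, 3 were higher and 8 lower, with a median of -0.28. Of the 11 desmosome genes at that level, 8 were higher and 3 lower, with a median of 0.70, where the median of all genes at that level was 0.19. Under a level of 8, 19.9% of all genes were higher and 45.5% lower, against 2 and 10 of 16 tight junction genes. The 4 dim desmosome genes split evenly.

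**Figure D1:**
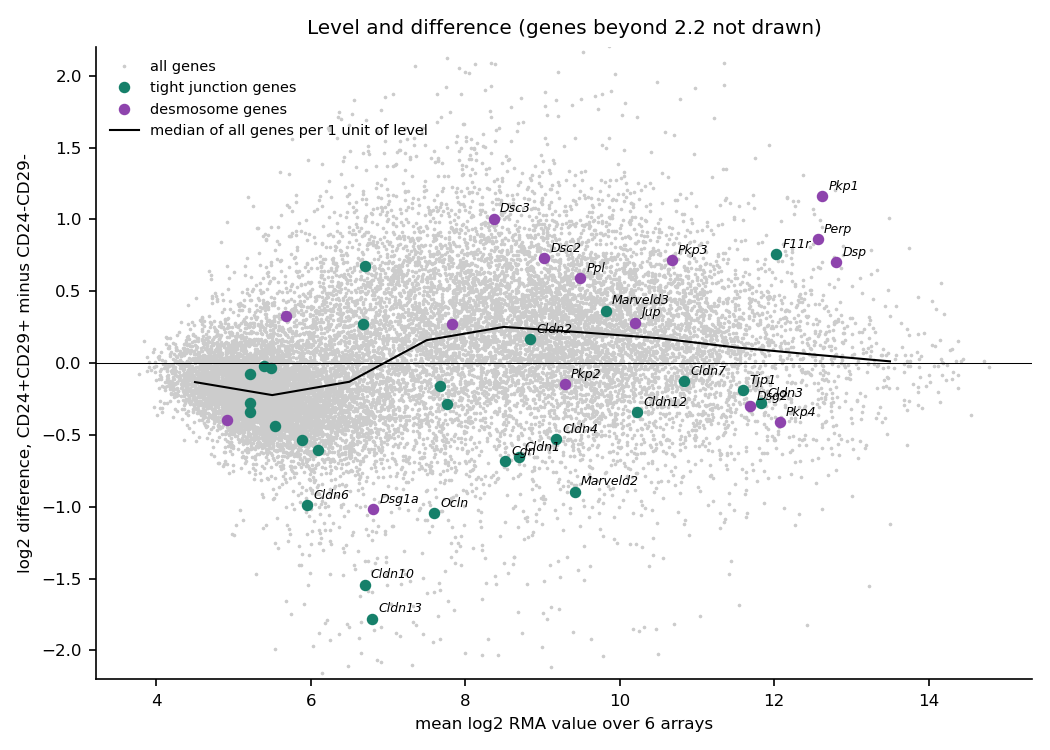
Mean log2 RMA value over the 6 arrays (x axis) against the log2 difference, CD24+CD29+ minus CD24-CD29- (y axis), for all genes (grey), tight junction genes (green) and desmosome genes (purple), with the median of all genes per unit of level as a line. Above a level of 8, 8 of 11 tight junction genes lie below 0 and 8 of 11 desmosome genes above it on the deposited scale, and scaling to the poly-A controls lifts all points by 1.08.

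Claudins span the membrane 4 times and set which ions and molecules pass between cells. Of 20 claudin genes, 14 were lower in CD24+CD29+ cells, 2 were higher and 4 missed the threshold, where 36.5% of all genes were lower. Under a level of 8, 9 of 14 claudins were lower, beside 45.5% of all genes, and at 8 or more 5 of 6 were lower, beside 23.3%. Those 14 had a median level of 5.92, and 56.6% of all genes at a mean level of 5 to 6 were lower. The median difference of all 20 claudins was -0.31, which scaling to the poly-A controls makes positive. Cldn13, a rodent claudin known also from mouse red cell precursors, stood at 5.86, 6.02 and 5.82 in CD24+CD29+ cells, against 7.71, 7.80 and 7.54 in CD24-CD29- cells. Every CD24+CD29+ array was near the dim end of the scale and the groups did not overlap. The difference was -1.78 (SE 0.08), 3.43-fold lower (limma adjusted p = 1.5e-06). Erythroid markers were dim on these arrays, with a median level of 5.52, and 4 of 5 measured were lower (median -0.28). At a mean level of 5 to 6, 56.6% of all genes were lower. Mean levels of the markers per array were 6.83 to 6.90 in CD24+CD29+ cells, against 7.10 to 7.15 in CD24-CD29- cells. These means include Tfrc, the only bright one, which had a mean level of 12.52 and did not pass (0.06). The part of erythroid markers in the Cldn13 result was not tested.

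Cldn10, which has isoforms that form ion-selective pores, stood at 5.92, 5.94 and 5.92 in CD24+CD29+ cells, against 7.63, 7.39 and 7.39 in CD24-CD29- cells. It was 2.91-fold lower (-1.54, SE 0.07, limma adjusted p = 1.5e-06), again with no overlap. Cldn13 and Cldn10 stayed lower under scaling to the poly-A controls, at -0.70 and -0.46, and no other junction gene did. Cldn6, a claudin of embryonic epithelia, was 1.98-fold lower at 5.46 ± 0.05 against 6.44 ± 0.05 in CD24-CD29- cells (SD, n = 3). The neighbouring gene Cldn9 was lower by -0.53 at a level of 5.62 ± 0.03 against 6.15 ± 0.11 in CD24-CD29- cells.

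Cldn3, Cldn4 and Cldn7, claudins common in glandular epithelia, had bright probe sets and were lower by small amounts, or higher under scaling to the poly-A controls. Cldn3 stood at 11.69, 11.66 and 11.74 in CD24+CD29+ cells, against 11.92, 11.99 and 12.01 in CD24-CD29- cells. This is a difference of -0.28 (SE 0.05, limma adjusted p = 0.00092), 1.21-fold lower. Of its 3 other probe sets, 2 were also lower and the dimmest did not pass.

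Cldn4, beside Cldn3 on chromosome 5, stood at 8.91, 8.90 and 8.91 in CD24+CD29+ cells, against 9.51, 9.35 and 9.45 in CD24-CD29- cells. The CD24+CD29+ arrays were nearly identical and all below the others (-0.53, SE 0.05, limma adjusted p = 5.2e-05). Cldn7, which binds Epcam, was lower by -0.13 (SE 0.04), a call that was lost without CD24+CD29+ replicate 1 (-0.12, limma adjusted p = 0.056), without CD24-CD29- replicate 2 (-0.13, limma adjusted p = 0.050) and under median centring (-0.07).

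Cldn1, a barrier-forming claudin of skin and many glands, was lower at 8.42, 8.30 and 8.37 against 9.07, 9.08 and 8.91 in CD24-CD29- cells (-0.66, SE 0.06, limma adjusted p = 4.4e-05). That rests on 1 of its 4 probe sets: the others were dim and did not pass. Cldn12 was lower by -0.34 on its brighter probe set, whereas its other probe set was higher by 0.64. Cldn2, a pore-forming claudin of leaky epithelia, was higher by 0.16 (SE 0.05) on its main probe set and lower by -0.36 on the other. Its call was lost without any one of CD24+CD29+ replicates 1, 2 and 3 or CD24-CD29- replicate 2 (0.11 to 0.17), and quantile normalization turned it to -0.04. Cldn15 was higher by 0.27 (SE 0.07).

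The other claudins lay under a level of 8. Cldn22, Cldn18, Cldn19, Cldn8 and Cldn16 were lower by -0.61, -0.44, -0.34, -0.29 and -0.28. The Cldn16 call was lost under quantile normalization and cyclic loess (-0.14 in both, limma adjusted p = 0.067 and 0.069). Cldn23, Cldn14, Cldn11 and Cldn5 did not pass, with differences of -0.16, -0.08, -0.03 and -0.02 and SEs of 0.10, 0.07, 0.08 and 0.08. Cldn23 passed as lower under quantile normalization and cyclic loess (-0.34 in both, limma adjusted p = 0.017 and 0.016), and without CD24-CD29- replicate 2 (-0.26, limma adjusted p = 0.038). Cldn5 is the main claudin of endothelium, and of 14 endothelial markers 8 had a mean level under 6.

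**Figure D2:**
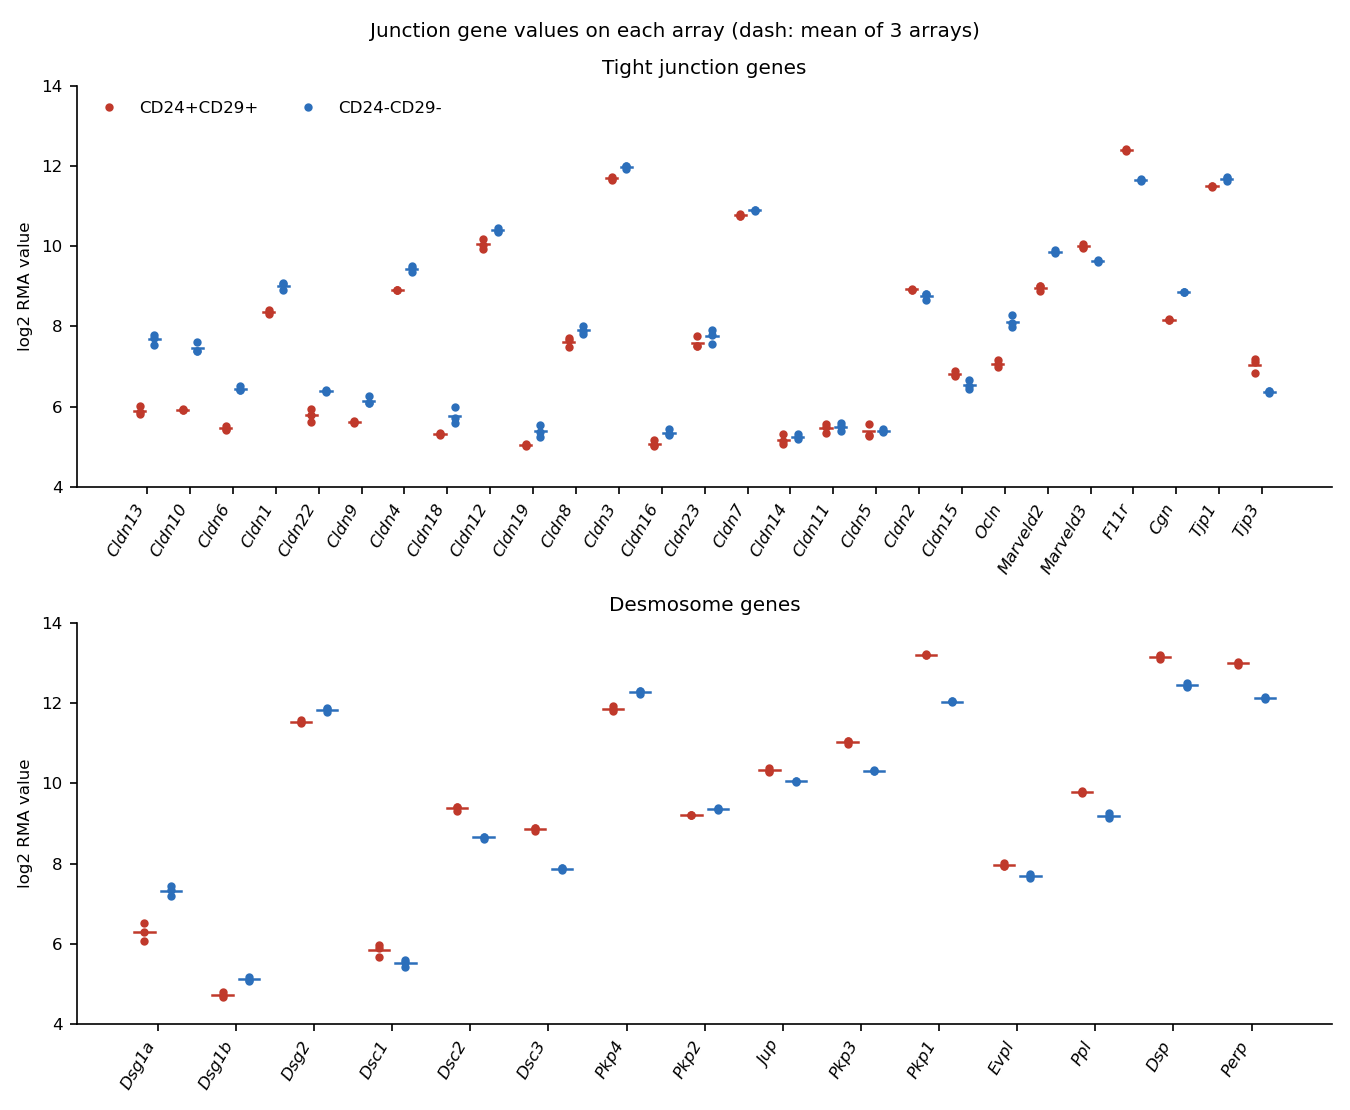
log2 RMA value (y axis) of each of the 42 junction genes (x axis) on each array, with CD24+CD29+ arrays in red, CD24-CD29- arrays in blue and a dash at the mean of 3 arrays. The groups are separate for all 15 desmosome genes and for 23 of 27 tight junction genes, beside 73.6% of all genes. They overlap for Cldn23, Cldn14, Cldn11 and Cldn5.

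Occludin and tricellulin, the MARVEL-domain proteins of bicellular and tricellular contacts, were both lower in CD24+CD29+ cells. Ocln stood at 7.157, 7.068 and 6.998, against 8.276, 8.093 and 7.992 in CD24-CD29- cells. All CD24+CD29+ arrays lay below the lowest CD24-CD29- array, and the gene was 2.06-fold lower (-1.05, SE 0.08, limma adjusted p = 1.6e-05). Its other probe set was lower by -0.18, so the mean of both gave -0.62.

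Marveld2, which encodes tricellulin, stood at 9.01, 8.88 and 9.02 in CD24+CD29+ cells, against 9.90, 9.83 and 9.86 in CD24-CD29- cells. This is 1.86-fold lower (-0.90, SE 0.05, limma adjusted p = 4.7e-06). Scaling to the poly-A controls turns both slightly positive, at 0.04 for Ocln, which then does not pass, and 0.19 for Marveld2. Marveld3, the remaining member of the family, stood at 9.98, 9.96 and 10.06 in CD24+CD29+ cells, against 9.63, 9.66 and 9.61 in CD24-CD29- cells. It was higher by 0.37 (SE 0.05, limma adjusted p = 0.00023), but 2 dimmer probe sets were lower, by -0.17 and -0.42, and the mean of the 3 was -0.07 and did not pass.

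F11r encodes JAM-A, an immunoglobulin-type adhesion protein of tight junctions. It had a bright probe set and stood at 12.41, 12.42 and 12.38 in CD24+CD29+ cells, against 11.68, 11.64 and 11.62 in CD24-CD29- cells. Unlike the claudins as a group it was higher, by 1.69-fold (0.76, SE 0.04, limma adjusted p = 3.1e-06). A dim second probe set did not pass (-0.00), and the mean of both was 0.38.

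The cytoplasmic plaque was divided. Cgn, which encodes cingulin, stood at 8.19, 8.17 and 8.15 in CD24+CD29+ cells, against 8.85 on each CD24-CD29- array, 1.60-fold lower (-0.68, SE 0.04, limma adjusted p = 4.0e-06). Its other probe set was lower too, by -0.48. Tjp1, the scaffold ZO-1, stood at 11.51, 11.51 and 11.49 in CD24+CD29+ cells, against 11.70, 11.72 and 11.64 in CD24-CD29- cells. The groups did not overlap but the difference was small, -0.19 (SE 0.04, limma adjusted p = 0.0048). Tjp3, the scaffold ZO-3, was higher by 0.67 (SE 0.09), at 7.11, 6.83 and 7.19 against 6.39, 6.38 and 6.34 in CD24-CD29- cells.

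**Figure D3:**
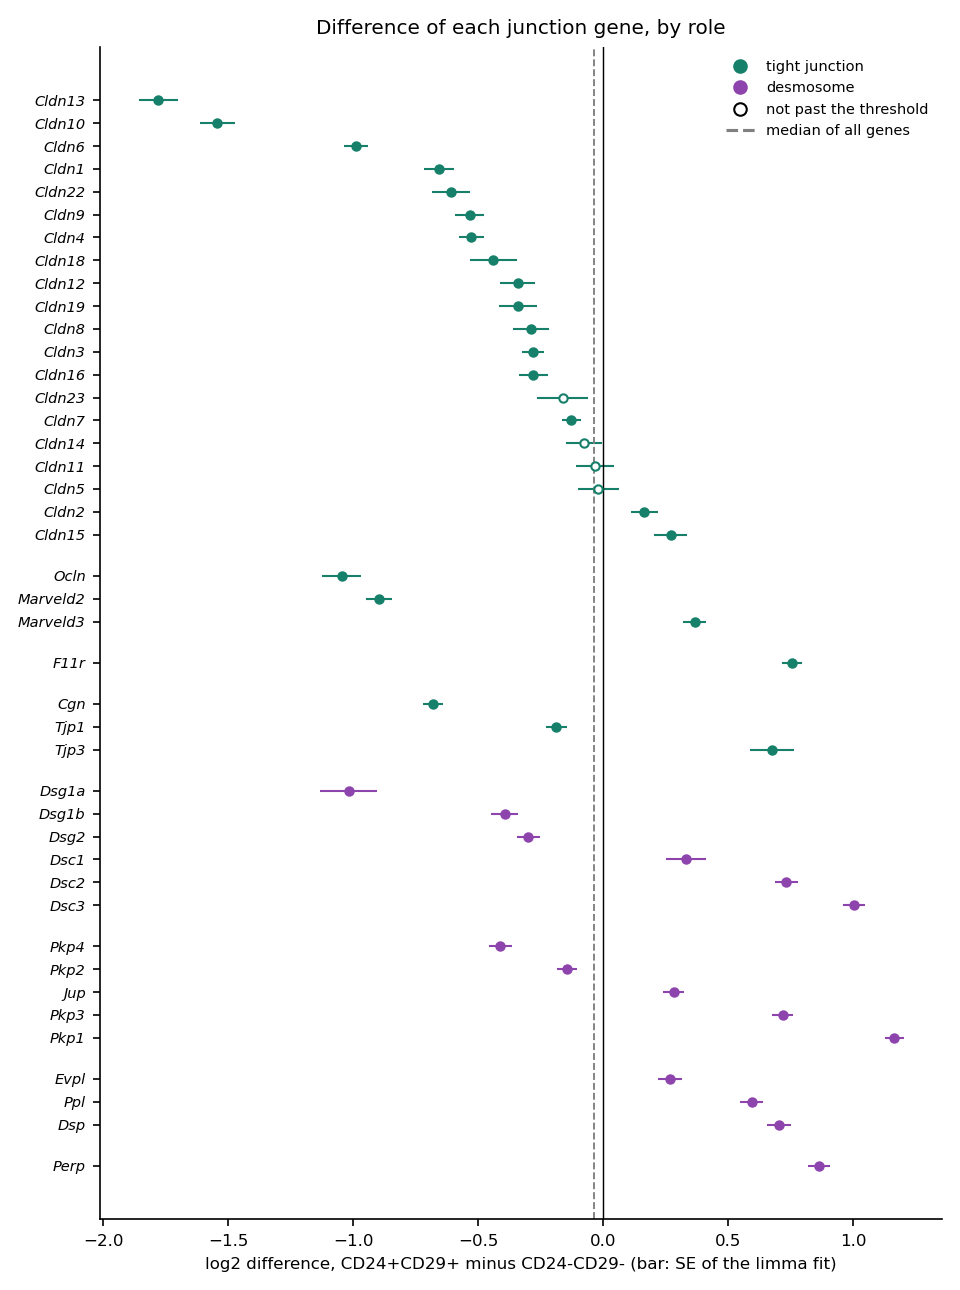
log2 difference, CD24+CD29+ minus CD24-CD29- (x axis), with the SE of the limma fit, for each junction gene grouped by role (claudins, MARVEL proteins, JAM-A, tight junction plaque, desmosomal cadherins, plakophilins and plakoglobin, plakins, Perp). On the deposited scale the 3 plakins and Perp are higher and 14 of 20 claudins lower; scaling to the poly-A controls adds 1.08 to each and leaves Cldn13 and Cldn10 below 0.

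Among the desmosomal cadherins, the 3 desmocollins measured were higher and the 3 desmogleins lower in CD24+CD29+ cells, although scaling to the poly-A controls makes all 3 desmoglein differences positive. Dsc3, the desmocollin of basal layers in stratified epithelia, stood at 8.82, 8.89 and 8.90, against 7.83, 7.88 and 7.88 in CD24-CD29- cells. The lowest CD24+CD29+ array lay above the highest CD24-CD29- array, a 2.01-fold difference (1.00, SE 0.04, limma adjusted p = 1.4e-06). A dim second probe set did not pass (-0.04), and the mean of both was 0.48. Dsc2, the most widely expressed desmocollin, was 1.66-fold higher (0.73, SE 0.05), at 9.42, 9.33 and 9.41 against 8.61, 8.67 and 8.67 in CD24-CD29- cells. Dsc1 was dim and was higher by 0.33 (SE 0.08), and its other probe set was at -0.34 and did not pass.

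Dsg1a, a desmoglein of differentiated epidermis, stood at 6.08, 6.52 and 6.30 in CD24+CD29+ cells, against 7.34, 7.43 and 7.19 in CD24-CD29- cells. It was 2.02-fold lower (-1.02, SE 0.11, limma adjusted p = 0.00012), or 0.06 and not past the threshold under scaling to the poly-A controls. Dsg1b was lower by -0.39 at a level of 4.72 ± 0.07 against 5.12 ± 0.06 in CD24-CD29- cells (SD, n = 3). Mouse Dsg1 genes are close copies, so their probe sets may read one another's transcripts.

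Dsg2, the desmoglein of simple epithelia, gave no single answer. Its brightest probe set stood at 11.57, 11.51 and 11.54 in CD24+CD29+ cells, against 11.88, 11.86 and 11.79 in CD24-CD29- cells (-0.30, SE 0.04, limma adjusted p = 0.00058). The next brightest was higher by 0.24. Over its 6 probe sets, 4 were lower, down to -1.19, and 2 were higher, up to 0.42.

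Plakophilins and plakoglobin link the cadherin tails to desmoplakin. Pkp1, the plakophilin of stratified epithelia, had the largest rise of all junction genes. It stood at 13.20, 13.20 and 13.23 in CD24+CD29+ cells, against 12.05, 12.05 and 12.03 in CD24-CD29- cells. The spread within each group was at most 0.02 (SD), and the difference was 2.24-fold (1.16, SE 0.04, limma adjusted p = 4.9e-07). Pkp3, found in most epithelia, was 1.64-fold higher (0.72, SE 0.04), at 11.06, 10.99 and 11.06 against 10.30, 10.33 and 10.32 in CD24-CD29- cells, and its second probe set was higher by 1.17. Jup, which encodes plakoglobin, was higher by 0.28 (SE 0.04).

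Pkp4, a relative found also at adherens junctions, was lower by -0.41 (SE 0.05) at 11.92, 11.82 and 11.86 against 12.23, 12.30 and 12.29 in CD24-CD29- cells. Its second probe set, with a mean level of 10.74, was higher by 0.55. Pkp2 was lower by -0.14 (SE 0.04) on its main probe set and higher by 0.46 on one of nearly the same brightness. Its lower call was lost under median centring (-0.090, limma adjusted p = 0.084) and when its probe sets were averaged (-0.0078, limma adjusted p = 0.87), and grew to -0.33 under quantile normalization and -0.34 under cyclic loess. Dsg2, Pkp4 and Pkp2 are the 3 desmosome genes above a level of 8 that were called lower, and each had another bright probe set that was higher.

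The plakins were all higher in CD24+CD29+ cells on the deposited scale, as they were under each other scaling, though Evpl did not pass after quantile normalization or cyclic loess (0.08 in both). Dsp, which encodes desmoplakin, stood at 13.18, 13.20 and 13.09, against 12.50, 12.42 and 12.44 in CD24-CD29- cells. It was 1.63-fold higher (0.70, SE 0.05, limma adjusted p = 9.3e-06). A second bright probe set was higher by 0.21, and a dim one did not pass. Ppl and Evpl, which encode the cornified envelope proteins periplakin and envoplakin, were higher by 0.59 (SE 0.05) and 0.27 (SE 0.05). Perp, a desmosomal membrane protein and p63 target, stood at 13.037, 12.954 and 13.004 in CD24+CD29+ cells, against 12.123, 12.169 and 12.110 in CD24-CD29- cells. It was 1.82-fold higher (0.86, SE 0.04, limma adjusted p = 2.4e-06).

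At the level of probe sets, 23 of the 72 were higher, 35 lower and 14 not past the threshold, where 63.9% of all 45037 non-control probe sets passed, 29.2% as higher and 34.8% as lower. The 42 probe sets of tight junction genes had 6 higher and 26 lower, and the 30 of desmosome genes had 17 higher and 9 lower. Of 18 junction genes with more than 1 probe set, 6 had another past the threshold in the opposite direction (Cldn12, Cldn2, Marveld3, Dsg2, Pkp4 and Pkp2), against 19.7% of all such genes.

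**Figure D4:**
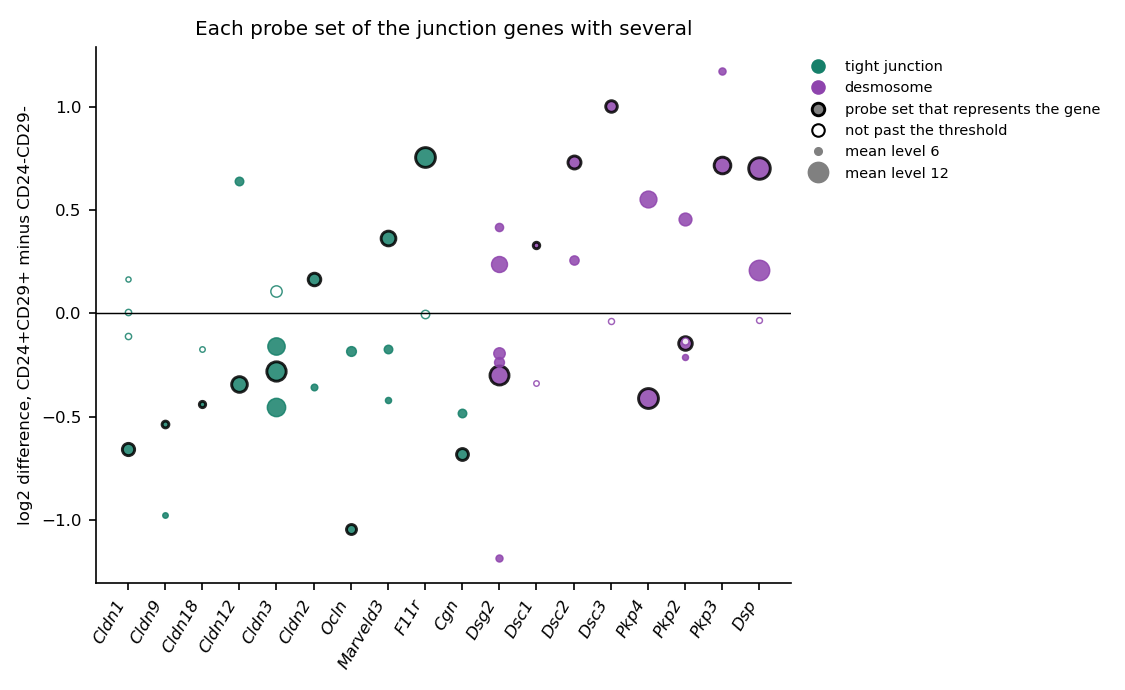
log2 difference, CD24+CD29+ minus CD24-CD29- (y axis), of each probe set of the 18 junction genes that have several (x axis), with area growing with mean level, a black rim for the probe set that represents the gene and open circles for those not past the threshold. Pkp4, Pkp2 and Dsg2 have bright probe sets on both sides of 0, while both probe sets of Ocln and of Cgn lie below it on the deposited scale.

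Of the 42 genes, 25 had a promoter in the RefSeq table, with 37 promoters in all. The CAGGTG E-box (either strand) was found in 20.2% of all 32851 promoters, in 12 of 33 tight junction promoters and in 2 of 4 desmosome promoters. Overlapping promoters of one gene, as for Ocln and for Marveld2, share a site and were each counted, so these promoter counts are not independent. By gene, 7 of 16 lower genes and 3 of 6 higher genes held it. All 6 promoters printed above hold it, in Ocln and Cldn4 at 2 positions, but they are a chosen set and do not stand for the rest. Among genes not printed, the lower genes Cgn and Cldn1 and the higher genes Jup and Cldn2 had none. The box was thus both present and absent among genes of each direction. The GC box GGGCGG, which Sp1 reads, was in 35.7% of all promoters and in 20 of 33 and 3 of 4. These matches describe the sequence only. Beyond the pairs printed above, Cldn6 lies beside Cldn9 and Cldn1 beside Cldn16, all 4 of them lower. Cldn6, Cldn9 and Cldn16 had mean levels of 5 to 6, where 56.6% of all genes were lower. The desmocollin genes, which were higher, lie in one stretch with the desmogleins, which were lower.

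Other contact proteins were described from lists of genes drawn up by function, and scaling to the poly-A controls adds 1.08 to each difference given for them. Of 20 adherens junction genes, 11 were higher, 5 lower and 4 not past the threshold (median 0.16). The list had a median level of 8.996, and at 8 or more 55.5% of all genes were higher and 23.3% lower (median 0.19). Cdh2, the N-cadherin gene, was higher by 1.32, Ctnnal1, a relative of alpha-catenin, was higher by 1.21, and Nectin3 was lower by -1.02 with 1 probe set of opposite sign. Cdh1, the E-cadherin gene, was chosen after its values were seen: it stood at 11.86 ± 0.06 in CD24+CD29+ cells and 11.85 ± 0.04 in CD24-CD29- cells (SD, n = 3 each) and did not pass (0.01, SE 0.05).

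Of 14 other tight junction membrane genes, 4 were higher and 7 lower (median -0.26). Their median level was 7.06, and under a level of 8, 19.9% of all genes were higher and 45.5% lower (median -0.15). Igsf5, a JAM relative that encodes JAM4, was lower by -2.32, at 6.54 ± 0.11 against 8.86 ± 0.10 in CD24-CD29- cells, and Tmem47, a claudin relative, was lower by -1.03. Lsr, which encodes the angulin that recruits tricellulin, was higher by 0.91, opposite to the tricellulin gene Marveld2. Of 25 polarity and scaffold genes measured, 11 were higher and 5 lower (median 0.07). Their median level was 9.38, and at 8 or more 55.5% of all genes were higher and 23.3% lower. Pard3b was lower by -1.17, Pard6b was lower by -0.87 and the kinase gene Prkcz was higher by 0.98, with 2 other probe sets of opposite sign.

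Of 26 desmosome partners and cornified envelope genes, 11 were higher and 10 lower (median 0.08). Their median level was 8.43, and at 8 or more 55.5% of all genes were higher and 23.3% lower. Krt6b, a keratin of stressed and stratified epithelia, was higher by 2.45, the filament gene Vim was higher by 1.15 and the envelope precursor gene Sprr1a was higher by 1.07. Of 29 transcriptional regulators of junction genes measured, 9 were higher and 15 lower (median -0.20). Their median level was 9.31, so the same shares of all genes stand beside these counts. Tfap2c was lower by -1.12 and Elf5, a regulator of milk-producing cells, was lower by -0.97. Tcf3, whose E proteins bind E-boxes, was higher by 0.97. Of the Snail and Zeb genes, named because their boxes are marked above, Snai2 was higher by 0.67 and Snai1 was lower by -0.54. Snai3 was higher by 0.265 and Zeb2 was lower by -0.28, each with 1 probe set of opposite sign. Zeb1 did not pass (-0.19).

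Most markers of the mammary layers also differed on the same arrays, but not all markers of a layer in the same direction. Of 19 luminal markers measured, 15 were lower and 3 higher in CD24+CD29+ cells (median -0.38), with mean levels per array of 10.26 to 10.27, against 10.65 to 10.71 in CD24-CD29- cells. Csn1s1 was lower by -2.39, Csn3 was lower by -1.12, and Esr1 was higher by 1.11 with 1 probe set of opposite sign. Of 19 basal markers, 14 were higher and 2 lower (median 0.65), at 9.93 to 9.98 against 9.32 to 9.34 in CD24-CD29- cells, led by Cav1 (2.09), Lgr5 (1.71) and Egfr (1.29). The 2 lower were Mylk (-0.84, with 1 probe set of opposite sign) and Oxtr (-0.26). Acta2 was higher by only 0.13 and Cnn1 by 0.39, and Myh11, Ngfr and Tagln did not pass. Of 14 fibroblast markers, 13 were higher (median 0.64), at 9.03 to 9.07 against 8.19 to 8.21 in CD24-CD29- cells, led by Col1a2 (2.02), Col3a1 (1.73) and Lum (1.48). The luminal, basal and fibroblast lists had median levels of 10.8, 10.3 and 8.40. At a mean level of 8 or more, 55.5% of all genes were higher and 23.3% lower. The part of such markers in the junction results was not tested.

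**Figure D5:**
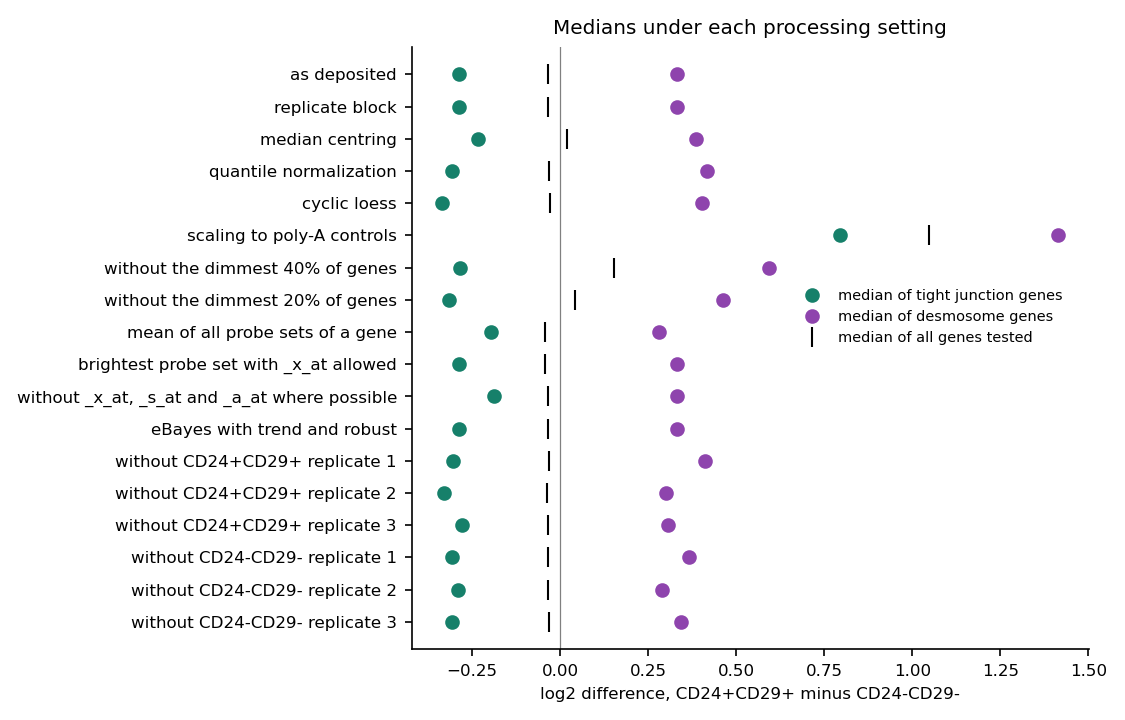
Median log2 difference, CD24+CD29+ minus CD24-CD29- (x axis), of tight junction genes (green), desmosome genes (purple) and all genes tested (black tick) under each processing setting (rows). The tight junction median lies left of the median of all genes and the desmosome median right of it in every row. Median centring and scaling to the poly-A controls shift all differences alike, and the replicate block and the trend and robust options leave them unchanged. In those rows the relative positions were fixed in advance. Scaling to the poly-A controls moves all 3 to the right and turns the tight junction median positive.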

How the data were processed

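RNA of sorted cells was measured on 6 Affymetrix Mouse430_2 arrays, 3 for each group. The deposited log2 values were made by the authors with RMA and Partek, per the submitters' processing notes; the notes name no versions or settings, and no detection calls were used here. Background left in RMA values understates differences of dim genes. The number of arrays limits the precision.

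Probe sets were named through the platform annotation, which can be old: 34945 had 1 symbol, 932 several and 9160 none. The groups were compared with limma 3.58.1 (R 4.3.3; lmFit and eBayes, no block, trend or robust option) on 1 probe set per gene and, separately, on 45037 non-control probe sets. In simulated data with 50 genes changed at each size, the fit recovered 30% at a difference of 0.25, 92% at 0.5 and 100% at 1. Far fewer genes were changed there than the 70.8% that passed in the real data, so these rates may not carry over. The members, gene lists and tests were chosen with earlier results of these data known. Named with values on every array were members with at least a 2-fold difference and, in each role, the brightest gene and the largest difference; from other lists, up to 3 genes. Further members described on every array were chosen after their values were seen. Alternatives covered scaling, filters on dim genes, probe set choice, moderation, a replicate block and each array left out.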

Additional observations from a re-analysis of the deposited data

How the results depend on the processing

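The scaling and the choice of probe set changed results most often. Scaling to the poly-A controls, which adds 1.08 to every difference, gave 37 junction genes higher and 2 lower, with medians of 0.91 for all junction genes, 0.80 for tight junction genes (23 higher, 2 lower) and 1.41 for desmosome genes (0 lower). Differences that turned positive under it were 0.094 for Cldn6, 0.43 for Cldn1, 0.47 for Cldn22, 0.55 for Cldn9 and for Cldn4, 0.64 for Cldn18, 0.74 for Cldn12 and for Cldn19, 0.80 for Cldn8, Cldn3 and Cldn16, 0.95 for Cldn7, 0.036 for Ocln, 0.19 for Marveld2, 0.40 for Cgn, 0.90 for Tjp1, 0.065 for Dsg1a, 0.69 for Dsg1b, 0.78 for Dsg2, 0.67 for Pkp4 and 0.94 for Pkp2. The medians of junction, tight junction and desmosome genes, in that order, were -0.12, -0.23 and 0.39 under median centring, -0.23, -0.31 and 0.42 under quantile normalization, -0.25, -0.33 and 0.40 under cyclic loess, -0.15, -0.31 and 0.46 without the dimmest 20% of genes, and -0.11, -0.20 and 0.28 when all probe sets of a gene were averaged. Without the dimmest 40% of genes the median was -0.14 for junction and 0.59 for desmosome genes. Without probe sets ending in _x_at, _s_at or _a_at it was -0.054 for junction and -0.19 for tight junction genes. That choice and the mean of probe sets each left 3 desmosome genes lower. Cldn2 turned to -0.043 under quantile normalization and -0.046 under loess. The mean of probe sets gave 0.15 for Cldn12, -0.10 for Cldn2, -0.075 for Marveld3, -0.0036 for Dsc1 and 0.072 for Pkp4. Without those probe set types the values were 0.0048 for Cldn1, 0.64 for Cldn12, 0.24 for Dsg2 and 0.46 for Pkp2. The cause of these changes was not tested. Without any one array the medians ranged from -0.22 to -0.17 for junction, -0.33 to -0.28 for tight junction and 0.29 to 0.41 for desmosome genes. Deviations of same-numbered arrays had correlations of 0.22, -0.05 and 0.04, and those of differently numbered arrays ranged from -0.24 to 0.21. Not every array correlated best with its own number. With 3 arrays in each group, these values cannot show whether equal numbers mark one culture, sort or day, and the labels do not say. The replicate block gave 12867 genes past the threshold, against 12889, and 24 junction genes lower, with Cldn23 added (limma adjusted p = 0.046). Moderated variances with trend and robust options changed the call of 0 of the 42 genes, as did allowing _x_at probe sets. Scaling also moved the share of all genes past the threshold that were higher, to 55.6% under median centring and 99.0% under scaling to the poly-A controls, against 48.5%. The dim probe sets lie near the low end of the scale, where no detection call says whether a transcript was measured.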

Other observations

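Of 12 leukocyte markers measured, 8 were lower in CD24+CD29+ cells and 0 higher (median -0.32), led by Csf1r (-0.88). They were dim (median level 5.60), and at a mean level of 5 to 6 the array as a whole had 56.6% of genes lower and 8.22% higher. Of 14 endothelial markers, 4 were higher, 3 lower and 7 not past the threshold (median -0.04), at a median level of 5.22, and Flt1 was higher by 1.08. Of 6 adipocyte markers measured, 3 were lower and 1 higher (median -0.19), the last being Fabp4 (0.88, with 2 of its other probe sets of opposite sign). These 3 genes were chosen after their values were seen.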
